A study of Drosophila melanogaster with 3 samples.

Results

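Intergenic peaks of YL-1 are the regions bound by this chromatin protein with a summit outside protein-coding genes and away from their promoters. They were taken from the authors' list of peaks that passed the irreproducible discovery rate (IDR), a threshold on how repeatably peaks rank across replicates. A peak counted as intergenic when its summit lay in no protein-coding gene and more than 250 bp from every annotated protein-coding transcription start site (TSS). By this rule 407 peaks were intergenic, or 6.80% of the list. The rest were 4371 promoter peaks, with a summit within 250 bp of a coding TSS, and 1208 gene-body peaks, with a summit inside a coding gene beyond that distance. Within the list the rule uses position only. The list itself was selected on how repeatably peaks rank, so signal and replicate support vary only among peaks that passed. The data were chromatin immunoprecipitation with sequencing from whole Drosophila melanogaster embryos of mixed sex, aged 0 to 24 h. All embryos carried a transgene for YL-1 with GFP at its carboxy terminus, kept as a stable line, and chromatin sheared to 200 to 800 bp was precipitated with an antibody against GFP. There was 1 group of 3 biological replicates, and an untagged or input library was not analysed here. Whole embryos mix all tissues and stages, so a peak used by few cells and a weak peak in many cells cannot be told apart. The files give no read totals, and the depth behind each library is unknown.

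YL-1 belongs to the Domino and Tip60 chromatin complexes, which place the histone variant H2Av in nucleosomes and acetylate histones. H2Av is best known from the nucleosomes beside active promoters. DNA between coding genes can hold the promoters of non-coding RNAs, enhancers, and sites for insulator proteins, which separate neighbouring chromatin domains.

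Short sequences were sought within 100 bp of the summits. Among those with a higher share at intergenic peaks than at promoter peaks, gene-body peaks and intergenic sequence at large were the cores of the CTCF and Su(Hw) consensus. Both proteins are zinc finger insulator proteins of the fly. The CTCF letters AGGTGGCG are shown in capitals below with 14 bases on each side, for each intergenic peak outside the arm from which no sequence is given. These were chosen after the values were seen. Each line names the nearest coding gene, the rank of the peak among all IDR peaks, the position in dm6 and the strand read.
jp, rank 24, chr2L:9567471-9567506, minus strand: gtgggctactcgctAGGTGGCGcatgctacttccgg
Cph, rank 890, chrX:7242111-7242146, plus strand: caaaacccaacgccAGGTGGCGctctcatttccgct
His3.3B, rank 2567, chrX:9152220-9152255, plus strand: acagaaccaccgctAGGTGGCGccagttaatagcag
Obp99b, rank 2915, chr3R:29717106-29717141, plus strand: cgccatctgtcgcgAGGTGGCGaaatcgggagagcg
His3.3B, rank 3316, chrX:9152442-9152477, minus strand: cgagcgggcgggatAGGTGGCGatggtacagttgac
DnaJ-1, rank 4004, chr3L:5749809-5749844, plus strand: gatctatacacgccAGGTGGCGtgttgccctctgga
sbr, rank 4379, chrX:10832551-10832586, minus strand: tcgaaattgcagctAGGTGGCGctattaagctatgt
CG15452, rank 4942, chrX:20760522-20760557, plus strand: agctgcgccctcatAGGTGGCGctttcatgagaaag
CG4593, rank 5572, chrX:7015236-7015271, plus strand: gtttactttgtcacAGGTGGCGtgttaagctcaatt
CG33969, rank 5624, chr3L:20395511-20395546, plus strand: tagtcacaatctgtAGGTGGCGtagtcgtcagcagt
The Su(Hw) letters TGCATACTT, in capitals, stood at these peaks.
E(spl)m3-HLH, rank 1148, chr3R:26021390-26021426, plus strand: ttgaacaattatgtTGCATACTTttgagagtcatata
scyl, rank 2241, chr3L:11256681-11256717, plus strand: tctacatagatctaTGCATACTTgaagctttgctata
CG12617, rank 2646, chr2L:20287459-20287495, plus strand: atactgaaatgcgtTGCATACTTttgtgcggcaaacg
Glut3, rank 2736, chr3R:16798781-16798817, minus strand: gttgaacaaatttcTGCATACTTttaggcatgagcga
Atg13, rank 5800, chr3R:8353077-8353113, plus strand: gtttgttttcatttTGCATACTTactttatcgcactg
The promoter element motif 1 (GGTCACACT), known from housekeeping promoters of the fly, was found at 1.72% of intergenic summits. That share was below the 9.47% of promoter summits and above the 0.102% of windows from intergenic sequence at large. The motif occurred in 2 copies beneath a peak between the segmentation genes slp1 and slp2, as capitals show. It stood in 1 copy beside the start of the dosage compensation RNA roX2.
slp2, rank 1023, chr2L:3832482-3832518, plus strand: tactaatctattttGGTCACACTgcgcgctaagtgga
slp2, rank 1023, chr2L:3832517-3832553, plus strand: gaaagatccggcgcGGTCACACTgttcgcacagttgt
roX2, rank 5271, chrX:11579062-11579098, plus strand: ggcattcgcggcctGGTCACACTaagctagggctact
The strongest intergenic peak lay 9 bp from the TSS of lncRNA:CR31840, and its sequence within 100 bp of the summit is given with TATAAA in capitals.
lncRNA:CR31840, rank 4, chr2L:14023990-14024190, plus strand: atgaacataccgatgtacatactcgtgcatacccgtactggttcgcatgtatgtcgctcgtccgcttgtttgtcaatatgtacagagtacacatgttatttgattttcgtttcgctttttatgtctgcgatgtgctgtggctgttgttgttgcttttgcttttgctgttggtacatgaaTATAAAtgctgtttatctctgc
The sequences are from the RefSeq copy of the Release 6 assembly. A match is a run of letters and was not tested for binding of the factor.

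Intergenic summits were fewer than intergenic sequence would give. They made up 6.80% of IDR peaks (exact binomial 95% interval 6.17% to 7.47%, which covers the counting of peaks only), whereas intergenic sequence under the same rule makes up 31.1% of the bases of the 6 chromosome arms. For each replicate an equal number of its strongest regions was set beside the IDR peaks and is called its top regions. Of these, 371 were intergenic in replicate 1, 410 in replicate 2 and 481 in replicate 3, which is 7.03% ± 0.932 (SD, n = 3). All 407 peaks were also intergenic by the RefSeq gene models. The peaks were spread over the arms at 8.87 per Mb of intergenic sequence on X, 9.96 on 2L, 8.03 on 2R, 10.7 on 3L, 11.0 on 3R and 9.60 on chromosome 4, where 3 peaks were found. In replicates 1, 2 and 3 the density on X was 7.04, 7.65 and 9.33 per Mb and that on 3R was 10.3, 11.1 and 11.5. Only 1 summit lay in an annotated transposable element, and repeat-masked bases made up 21.5% of the sequence within 100 bp of intergenic summits, 16.6% at promoter summits, 20.6% at gene-body summits and 26.0% of intergenic sequence at large.

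Intergenic peaks were weaker than promoter peaks and about as strong as gene-body peaks. The signal is the authors' own value for each region, its scale differs between libraries, and it was compared only within a list. Its median was 191.4 at intergenic peaks, 229.9 at promoter peaks and 189.1 at gene-body peaks, and over intergenic peaks it ran from 137.3 to 1269. The ratio of intergenic to promoter medians was 0.833 in the IDR list and 0.812, 0.825 and 0.802 in replicates 1, 2 and 3, or 0.813 ± 0.0117 (SD, n = 3). It was below 1 in 3 of 3 replicates, with p = 0.25 in a two-sided exact sign-flip permutation test, the smallest p that 3 replicates can give. Against gene-body peaks the ratio was 1.01 in the IDR list and 0.998, 0.985 and 0.975 in the replicates, so its direction differed between the IDR list and the replicates. The upper tail was long. Of the 407 intergenic peaks, 152 had a signal above the median of all IDR peaks, 51 were among the strongest 1000 and 8 among the strongest 100.

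**Figure D1:**
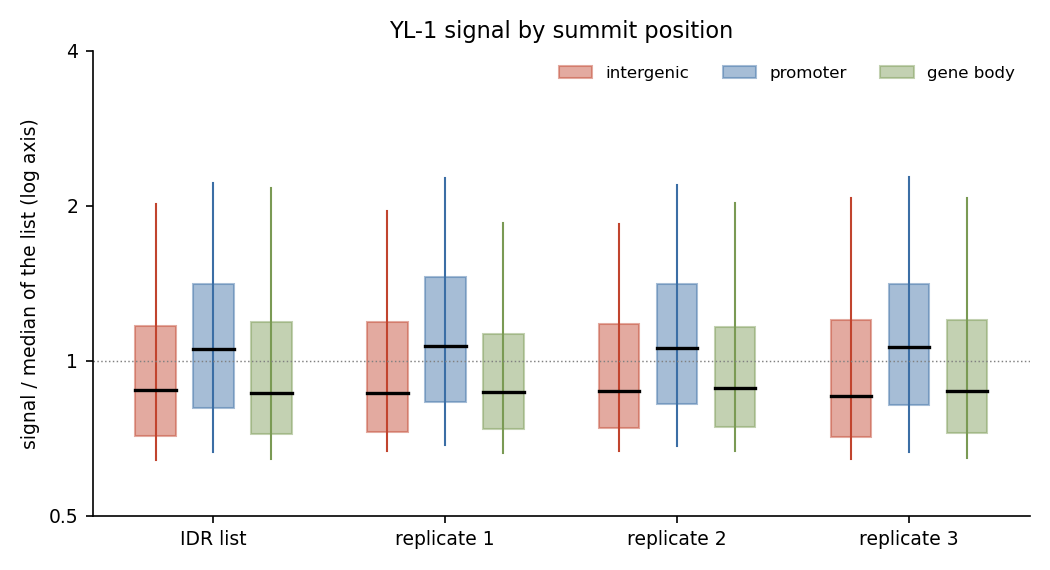
The signal of each region is plotted on a log axis, divided by the median of its list, for intergenic, promoter and gene-body summits of the IDR list and of each replicate's top regions. Boxes span the interquartile range, black lines are medians and whiskers run from the 5th to the 95th percentile. The intergenic median is below the promoter median in all 4 lists, and the boxes overlap widely.

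Intergenic peaks were found again in the replicates less often than promoter peaks. The IDR list is drawn from the same replicates, so this compares kinds of peak and is not an independent check of the list. Of the 407, 211 overlapped a top region of all 3 replicates, 133 of 2, 61 of 1 and 2 of 0. The share in all 3 was 51.8% (interval 46.9% to 56.8%) for intergenic peaks, 77.6% for promoter peaks and 58.7% for gene-body peaks, with 72.0% over all IDR peaks. Weak peaks of any kind were found less often, so all IDR peaks were split into 4 equal groups by signal. In the strongest group 97.2% of intergenic and 99.8% of promoter peaks were found in all 3 replicates. In the second group it was 83.8% of intergenic and 93.8% of promoter peaks, in the third 47.4% and 67.6%, and in the weakest 14.2% and 38.7%. The libraries contributed unequally. Top regions of replicate 3 overlapped 368 intergenic peaks, those of replicate 2 overlapped 314 and those of replicate 1 overlapped 278. With no cut on strength, the 30000 regions of each replicate's list overlapped 402, 407 and 406 of the intergenic peaks in replicates 1, 2 and 3. The overlapping top region had its own summit in intergenic sequence for 242 of 278, 281 of 314 and 343 of 368 peaks. Most of the rest had it within 250 bp of a coding TSS.

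**Figure D2:**
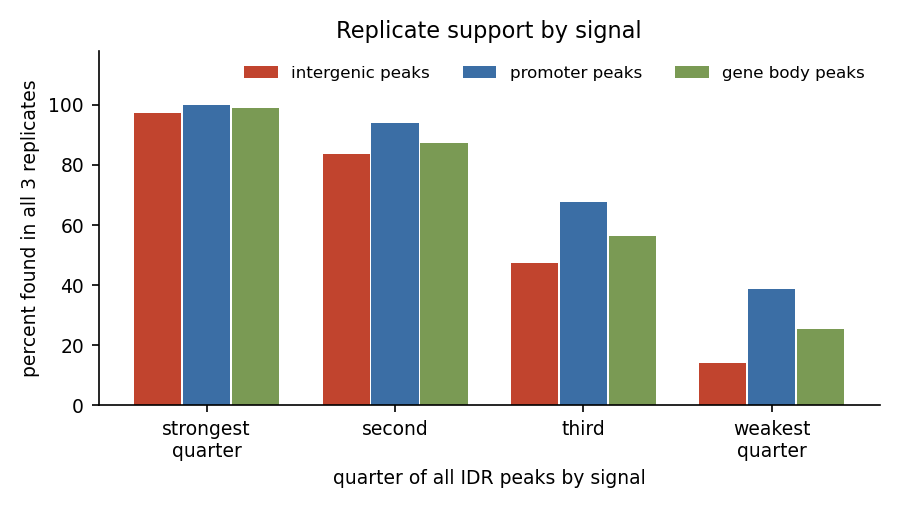
Bars give the percent of intergenic, promoter and gene-body IDR peaks that overlapped a top region of all 3 replicates, in 4 equal groups of all IDR peaks by signal. In the weakest group the bar stands at 14.2% for intergenic peaks and at 38.7% for promoter peaks.

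Intergenic peaks lay close to coding genes for sequence of their kind. The median distance from summit to nearest coding TSS was 1774 bp, with an interquartile range from 448 to 4963 bp and a maximum of 44353 bp. Among replicate top regions the median was 1518, 1820 and 1771 bp, against 8012 bp for intergenic sequence at large. The class up to 500 bp held 115 peaks, or 28.3% of them in 3.47% of intergenic bases, an 8.15-fold excess. The next class, up to 1000 bp, held 45 peaks (11.1% in 5.47% of bases), and that over 1000 and up to 5000 bp held 145 (35.6% in 28.6%). Beyond these the excess gave way to a deficit, with 91 peaks (22.4% in 35.9%) over 5000 and up to 20000 bp and 11 (2.70% in 26.6%) farther out. The intergenic bases cover whole arms, up to 730481 bp from a coding TSS. They include sequence where reads are hard to place and peaks are hard to call. Its part in the excess and the deficit was not tested. All 115 peaks of the nearest class were upstream of the TSS, where the rule leaves little other room, since downstream sequence this near is usually inside the gene. Of all 407, 297 were upstream of the nearest coding TSS. Nearer peaks were also found more often in all 3 replicates, at 61.7%, 55.6%, 53.8%, 36.3% and 36.4% from the nearest class to the farthest. Overlap with any top region counted as found, wherever its summit lay. In the nearest class 29 of the 115 peaks overlapped a promoter peak of the IDR list, in the next 1 of 45, and farther out 0. The part of such overlap in these shares was not tested.

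Peaks just inside and just outside the rule had similar values. The 43 intergenic peaks at up to 300 bp from a coding TSS had a median signal of 209.2, and 28 of them were found in all 3 replicates. The 64 promoter peaks at over 200 and up to 250 bp, also outside coding genes, had a median of 208.9, and 39 were found in all 3. Beside this, 30 intergenic peaks overlapped a promoter peak of the same list, 29 of them within 500 bp of the TSS. Some of the nearest peaks thus share their region with a promoter. Only 276 of the 407 peaks remained when the whole region had to lie outside coding genes and over 250 bp from every coding TSS. The other regions extended into a coding gene or to within 250 bp of a coding TSS. The summit itself is a coarse position, because for 284 of 407 intergenic peaks the deposited summit was within 1 bp of the middle of the region, and 281 regions were exactly 500 bp wide. Between the IDR list and the top replicate regions the summit moved by a median of 25, 29 and 15 bp in replicates 1, 2 and 3.

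**Figure D3:**
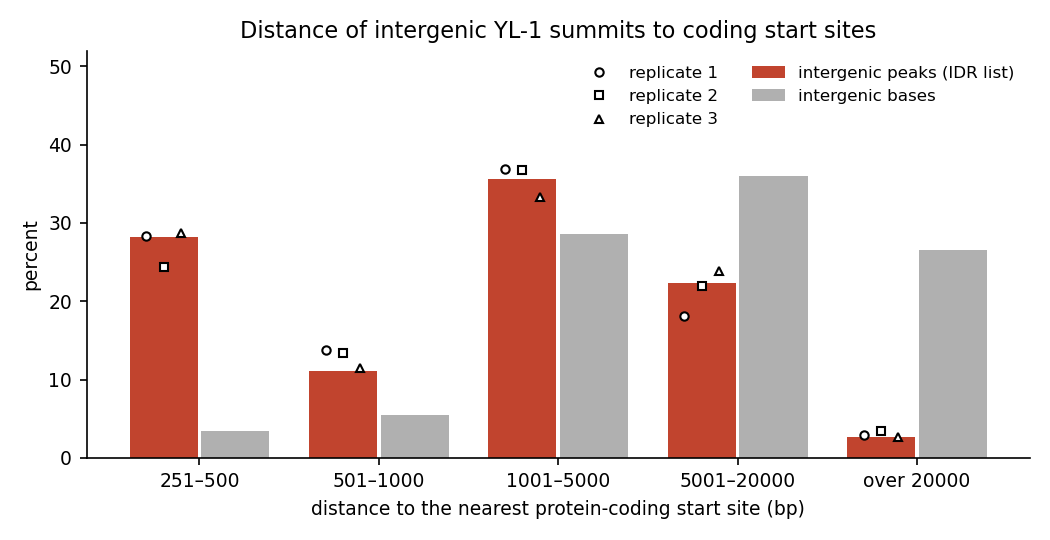
Red bars give the percent of the 407 intergenic peaks in each class of distance to the nearest coding TSS, in bp, and grey bars the percent of intergenic bases. Open symbols are the top regions of the 3 replicates. The class up to 500 bp holds 28.3% of peaks and 3.47% of bases, and the class over 20000 bp holds 2.70% and 26.6%.

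The neighbouring genes had a promoter peak more often than the genes nearest to intergenic sequence at large, and less often than coding genes in general. For 107 of the 407 peaks (26.3%) the nearest coding gene also had a promoter peak in the IDR list, against 11.4% for intergenic bases and 33.4% of all coding genes. The share was also above that of bases farther out. Among the 145 peaks at over 1000 and up to 5000 bp the share was 27.6%, against 10.7% of bases at that distance, and among the 91 at over 5000 and up to 20000 bp it was 20.9%, against 11.3%. Gaps between 2 divergent genes held 132 peaks (32.4%, interval 27.9% to 37.2%, in 24.4% of intergenic bases). Gaps between genes in the same direction held 207 (50.9% in 49.97%) and convergent gaps 68 (16.7% in 21.1%). The median signal was 205.0 in divergent, 184.1 in same-direction and 195.5 in convergent gaps. In all, 323 different coding genes were nearest to an intergenic peak, 262 of them to 1 peak only.

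The 10 strongest intergenic peaks were each found in all 3 replicates, and each stood at 2.71 to 5.81 times the median signal of all IDR peaks. The first, at 2L from 14023896 to 14024328, ranked 4 of all IDR peaks and lay 2911 bp from the nearest coding TSS, that of hll. It stood at 3.998, 6.08 and 6.04 times the median of the top regions in replicates 1, 2 and 3, where it ranked 20, 1 and 5. Its non-coding neighbour was lncRNA:CR31840, whose TSS was 9 bp away. A further peak in the same gap lay 228 bp from the TSS of lncRNA:CR45352 and ranked 1000. The second, at X from 12750857 to 12751613, ranked 12 and lay between the convergent genes CG4004 and Paics, a purine synthesis gene, 5047 bp from the TSS of CG4004. It was the widest intergenic region at 757 bp and stood at 4.03, 3.74 and 5.06 times the replicate medians. It lay inside lncRNA:CR44619, 503 bp from its TSS, with 2 further intergenic peaks within the same gap.

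The third and the sixth lay beside a pair of neighbouring Polycomb genes. Psc encodes a subunit of Polycomb repressive complex PRC1, and Su(z)2 a related protein. The third peak, at 2R from 12985022 to 12985403, ranked 18 and lay 4229 bp upstream of Psc and 144 bp upstream of lncRNA:CR44339. It stood at 3.07, 4.32 and 4.45 times the replicate medians. The sixth, at 2R from 13035194 to 13035488, ranked 76 and lay in the 36783 bp gap between Su(z)2 and CG13323, 11882 bp from the nearest coding TSS. It stood at 2.26, 2.88 and 3.58 times the medians and lay 50007 bp from the nearest non-coding TSS, so no annotated start site of either kind was near.

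The fourth peak, at 2L from 9567340 to 9567673, ranked 24 and lay 765 bp upstream of jp, the gene of junctophilin, in the 2139 bp gap to brwl. It held the first CTCF match shown above, 27 bp from the summit, and stood at 4.30, 3.31 and 3.58 times the replicate medians. The fifth, at 3R from 29214260 to 29214621, ranked 48 and lay 111 bp upstream of lncRNA:CR31044 and 5721 bp from the nearest coding gene, the translation elongation factor gene eEF1gamma. Beside it, a weak intergenic peak at rank 5162 lay 78 bp from the microRNA hairpin mir-279 and was found in 1 replicate. The seventh, at 2R from 9095019 to 9095504, ranked 84 and lay 26 bp upstream of the snoRNA host gene Uhg4 and 589 bp from Boot, with CTCF letters 86 bp from the summit. The eighth, at 4 from 497721 to 498075, ranked 85 and lay 3920 bp upstream of zfh2, which encodes a zinc finger homeodomain factor. The ninth, at 3L from 6743557 to 6743936, ranked 143 and lay 625 bp upstream of dikar. The last of the 10, at 2R from 22802819 to 22803114, ranked 147 and lay in the 1340 bp gap between blw, an ATP synthase gene, and CycB, which encodes the mitotic cyclin B. The last 5 stood at 2.26 to 3.602 times the medians in every replicate.

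Start sites of non-coding RNA genes accounted for a minor part of intergenic peaks. A non-coding TSS lay within 250 bp of the summit for 44 of the 407 (10.8%, interval 7.97% to 14.2%), for 2.71% of all IDR peaks, and for 2.08% of intergenic sequence. In the replicates the share was 14.02%, 11.95% and 8.32%, or 11.4% ± 2.89 (SD, n = 3). The median distance to a non-coding TSS was 6317 bp, against 18047 bp for intergenic sequence. To a TSS of either kind it was 765 bp. More than 1000 bp from any annotated TSS lay 186 peaks, and 53 were more than 5000 bp away. Near a non-coding TSS the median signal was 217.9, against 186.9 at the other intergenic peaks, a ratio of 1.17 that was 1.03, 1.09 and 1.17 in the replicates (3 of 3 above 1, p = 0.25 in the exact sign-flip permutation test). Among intergenic peaks above the median signal of all IDR peaks the ratio was 0.955, the opposite direction.

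By kind of RNA, the share with a peak was highest for snoRNA host genes, of which there are few. Uhg genes are transcribed for the snoRNAs in their introns, which guide modification of ribosomal RNA, and 5 of 6 with an intergenic TSS had a peak within 250 bp, namely Uhg1, Uhg3, Uhg4, Uhg5 and Uhg8, while Uhg2 had none. The share was 83.3% in the IDR list (interval 35.9% to 99.6%), and in replicates 1, 2 and 3 it was 83.3%, 50% and 83.3%. Of 56 snoRNA genes 8 had a peak (14.3%), and the same share was found in each replicate. Some of these snoRNAs lie within the Uhg genes and share their peaks. At Uhg4 the peak stood at 3.31, 2.76 and 3.00 times the replicate medians. At Uhg5 the signal was 1.53 and 2.38 times the median in replicates 1 and 3, whereas in replicate 2 the overlapping region stood at 0.276 times the median with its summit 338 bp away. Uhg3 stood at 0.982, 1.24 and 1.16 times the medians, and Uhg8 at 1.21, 0.492 and 1.02.

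Most long non-coding RNA genes had no intergenic peak at their start. Of 1320 with an intergenic TSS 25 did (1.89%, interval 1.23% to 2.78%), with 1.79% ± 0.244 in the replicates (SD, n = 3). Of 52 antisense RNAs 2 did, as did 2 of 87 microRNA hairpins and 4 of 154 tRNA genes. None of 16 snRNA and 99 rRNA genes had one in the IDR list, which by the exact interval allows shares of up to 20.6% and 3.66%. In replicates 1 and 2, snRNA:U1:95Ca had one (6.25% of snRNA genes in each). The hairpin start is the end of the cut precursor and not the start of the primary transcript. Over all classes it was 46 of 1798 genes (2.56%). The strongest peaks at a tRNA gene were those 218 bp from tRNA:Arg-CCT-1-3 (rank 3024) and 241 bp from tRNA:Ser-AGA-2-4 (rank 4651). The strongest at an antisense RNA lay 123 bp from asRNA:CR44390 (rank 1720), beside RhoGEF2. That RNA is not among the 52 with an intergenic TSS, so it is not 1 of the 2 counted above.

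**Figure D4:**
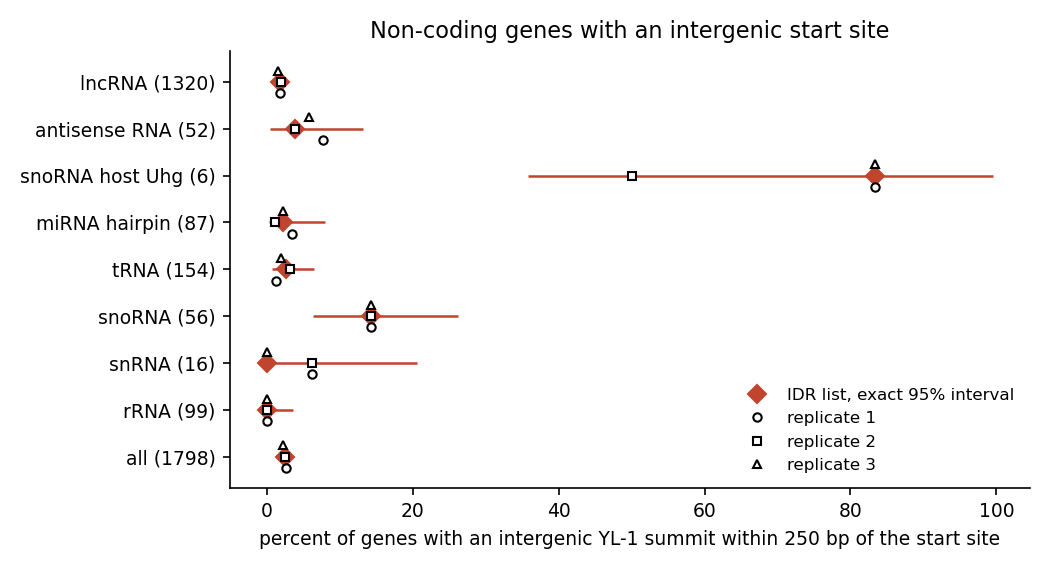
For each kind of non-coding RNA, the filled diamond gives the percent of genes with an intergenic TSS (their number in brackets) that had an intergenic YL-1 summit within 250 bp, with its exact 95% interval. Open symbols are the replicates. Uhg genes stand at 83.3% with a wide interval, snoRNA genes at 14.3% and lncRNA genes at 1.89%.

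Several well-known non-coding RNAs were among them. Hsromega, the heat shock RNA that organises nuclear speckles, had 3 intergenic peaks, at 83, 205 and 930 bp from its nearest TSS. Each overlapped a top region of all 3 replicates. The first 2 overlap each other, and in each replicate the same region was the strongest to overlap either of them. The first, at 3R from 21296126 to 21296362, stood at 1.69, 1.37 and 1.12 times the replicate medians. The dosage compensation RNA roX1, which with roX2 directs the male X chromosome complex, had 2 overlapping peaks, 92 and 23 bp from a TSS. Both overlapped a top region of all 3 replicates. The strongest such region was the same for both in each replicate, so they are not separate observations. The stronger peak stood at 0.991, 1.24 and 0.838 times the medians. The peak at roX2, 44 bp from its TSS and with the motif 1 match shown above, was weak, at rank 5271, and reached the top regions of 1 replicate with 0.891, 0.447 and 0.562 times the medians. The nearest peak to mir-ban, which encodes the growth-promoting microRNA bantam, lay 719 bp away at 0.802, 0.644 and 0.706 times the medians. In the list of known non-coding genes, 30 genes were matched. For 12 intergenic peaks (2.95%) the nearest non-coding TSS was that of 1 of them and lay within 1000 bp. Peaks nearer to another non-coding TSS, such as that of a snoRNA beside Uhg5, were not counted, so more peaks may lie within that distance. Of the 12, 4 were at Uhg genes, 3 at Hsromega, 2 at roX1 and 1 at lncRNA:CR31840. The share of intergenic bases within that distance is not given, so the count is a description only.

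Motif shares at intergenic summits differed from those at promoter summits. The DRE (TATCGATA), bound by DREF, and motif 1 are elements of housekeeping promoters. The DRE was found within 100 bp of 5 intergenic summits (1.23%), 10.4% of promoter summits, 0.662% of gene-body summits and 0.459% of intergenic windows, with 7.80% over all IDR peaks. Motif 1 was found at 7 intergenic summits (1.72%), 9.47% of promoter summits, no gene-body summit and 0.102% of windows, with 7.03% over all IDR peaks. The share of DRE at intergenic summits was 1.58% ± 0.105 in the replicates and that of motif 1 was 1.47% ± 0.600 (SD, n = 3). Both were below the promoter share in 3 of 3 replicates. The shorter CGATA, which is part of the DRE and of sites of the insulator protein BEAF-32, was found at 24.3% of intergenic, 43.6% of promoter and 22.02% of gene-body summits.

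Against promoter summits, CTCF and Su(Hw) letters went the other way. The CTCF core was found at 12 intergenic summits (2.95%, interval 1.53% to 5.09%), against 0.549% of promoter summits, 0.745% of gene-body summits and 0.347% of intergenic windows, with 0.752% over all IDR peaks. In the replicates the intergenic share was 3.77%, 1.95% and 1.87%, above both other classes in 3 of 3. Among IDR peaks found in both of replicates 2 and 3, without replicate 1, the share exceeded that of promoter summits by 1.499 percentage points and that of gene-body summits by 1.19, against 2.40 and 2.20 in the whole list. Of the 12 matches 9 lay within 30 bp of the summit. On X there were 6, and X held 14.3% of all intergenic peaks. A pair of these peaks, overlapping within X from 9152197 to 9152558, had summits 2580 and 2782 bp from the TSS of His3.3B, a gene of the replacement histone H3.3, and each held its own match. The Su(Hw) core was found at 6 intergenic summits (1.47%, interval 0.543% to 3.18%), 0.229% of promoter summits, 0.414% of gene-body summits and 0.482% of windows, with 0.351% over all IDR peaks. Its replicate shares were 1.62%, 1.46% and 1.04%. The excess over promoter summits was 1.25 percentage points, and 1.95 without replicate 3. That over gene-body summits was 1.06, with 1.63 without replicate 2 and 1.91 without replicate 3. Within 50 bp of the summit the excess was smaller, at 0.400 over promoter summits and 0.160 over gene-body summits. Of the 6 Su(Hw) matches 2 lay within 30 bp of the summit. Of its 6 peaks 5 were found in all 3 replicates, among them those near E(spl)m3-HLH of the Enhancer of split complex, a set of Notch targets, and near scyl.

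The GAGA repeat (GAGAGAG), the letters of GAGA factor sites, was intermediate. It was found at 25 intergenic summits (6.14%), 2.97% of promoter summits, 9.69% of gene-body summits and 2.23% of windows, with 4.54% over all IDR peaks. All 10 of these differences, for the 5 motifs against promoter and gene-body summits, kept 1 direction in 3 of 3 replicates. Each had p = 0.25 in the two-sided exact sign-flip permutation test and an adjusted p of 0.35 over 28 contrasts, which with 3 replicates cannot pass 0.05. For the DRE against gene-body summits the direction turned in 4 other settings of the IDR list, to between -1.34 and -0.0026 percentage points. TATAAA was found at 31.2% of intergenic summits, 25.3% of promoter summits, 26.9% of gene-body summits and 23.7% of windows. Of the other housekeeping promoter letters, motif 6 (GGTATTTT) was found at 1.47% of intergenic and 5.83% of promoter summits and motif 7 (CATCNCTA) at 0.983% and 7.16%, both lower in 3 of 3 replicates. The Zelda letters CAGGTAG were found at 6 intergenic summits (1.47%), 0.938% of promoter summits and 0.993% of gene-body summits. The initiator letters TCAGTT stood at 12.04% of intergenic and 11.8% of promoter summits. The Polycomb-recruiting factor Pho has the letters GCCATTT, found at 3.69% of intergenic and 5.77% of promoter summits, and the tRNA gene box B (GGTTCGA) stood at 0.737% and 1.56%. GC content, which bears on how often such letters occur, was lower at intergenic summits. Within 100 bp of the summit it was 36.7% at intergenic peaks, 40.7% at promoter peaks, 40.1% at gene-body peaks and 40.7% in intergenic sequence at large. The difference from promoter peaks was -3.33 ± 0.607 percentage points in the replicates (SD, n = 3). Its part in the motif shares was not tested.

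**Figure D5:**
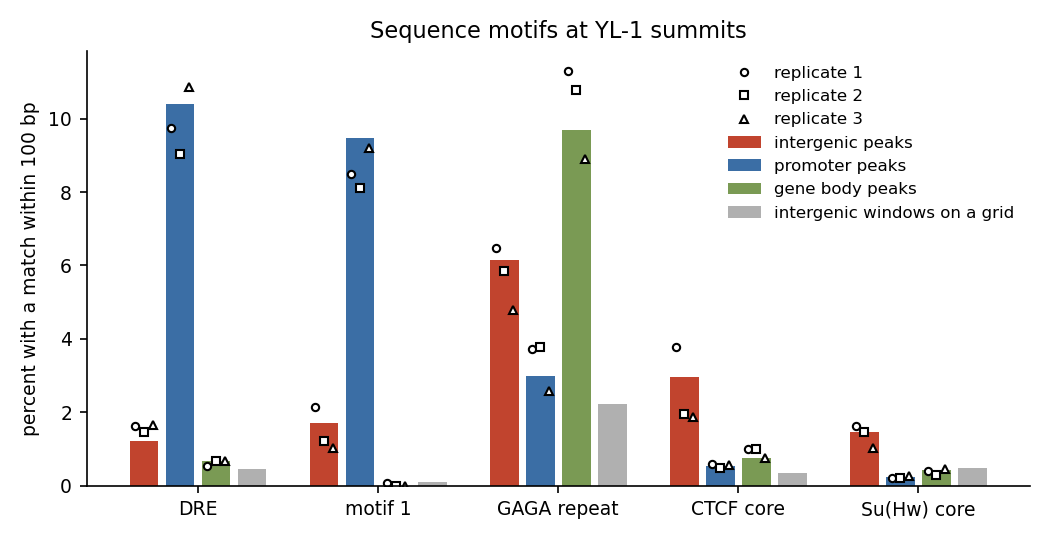
Bars give the percent of intergenic, promoter and gene-body IDR summits, and of intergenic windows of the same size on a grid, with a match to each motif within 100 bp on either strand. Open symbols are the top regions of the replicates. DRE and motif 1 stand at 1.23% and 1.72% at intergenic summits against 10.4% and 9.47% at promoter summits, while the CTCF core stands at 2.95% against 0.549%.

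Some intergenic peaks came in runs. With summits under 10 kb apart, 73 of the 407 peaks (17.9%) fell into 22 runs of 3 or more, 88 into pairs, and 246 were alone. The longest runs had 5 peaks. At 2L, 5 peaks over 16685 bp lay upstream of chinmo, which encodes a BTB zinc finger protein of temporal identity in neurons, at 1729 to 18414 bp from its TSS. Of these 4 were found in all 3 replicates and signals ran from 197.7 to 393.2. Also at 2L, 5 peaks over 17091 bp lay around Rh5, a photoreceptor opsin gene, with a highest signal of 408.3 and 3 found in all 3 replicates. At 3R, 4 peaks within 2644 bp lay 1148 to 3792 bp upstream of tara, with signals of 241.1 to 452.1, and all 4 were found in all 3 replicates.

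A further 18 runs had 3 peaks each. They included runs upstream of foxo, a transcription factor of insulin signalling (277 to 4590 bp, highest signal 350.1), and in the Enhancer of split complex at E(spl)malpha-BFM, E(spl)m2-BFM and E(spl)m3-HLH (433 to 813 bp, highest signal 327.3). A run downstream of scyl, a growth inhibitor, reached 306.5, one near Sema5c, a semaphorin gene, 253.9, and one near stck 311.0. Runs at Hsromega, Uhg5, Psc and lncRNA:CR44619 hold peaks described above. The rest lay near CG4218, CG5953, CG6163, CG7560, CG16898, Ids, hry, CheA75a and CG15172, with highest signals of 145.9 to 388.0. Runs near Ids, CG7560, CheA75a and CG15172 had no peak found in all 3 replicates. Peaks of 1 run are neighbours and in part overlap, so they are not separate observations.

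Genes that pattern the embryo were nearest to few intergenic peaks, and they are nearest to little intergenic sequence. None of the 8 homeotic genes was nearest to a peak, and these genes are nearest to 0.227% of intergenic bases. The same count was found for 14 insulator and architectural genes, nearest to 0.00289% of bases, and for 111 replication histone genes, nearest to 0.184%. At such shares few or no peaks would be counted in any case. Among 15 matched gap and maternal genes slp1 and slp2 were nearest to 1 peak each (0.491% of peaks in 0.420% of bases). Among 20 matched pair-rule and segment polarity genes 5 were. The strongest peak, at 2L from 3832406 to 3832626, lay 4317 bp upstream of slp2, a forkhead factor gene, ranked 1023 and stood at 0.976, 1.57 and 1.71 times the replicate medians. A peak near its neighbour slp1 ranked 5251, and those near the Hedgehog receptor gene ptc, the Wnt ligand gene Wnt6 and wg ranked 4233, 4657 and 5497. These 5 peaks were 1.23% of the 407, and such genes are nearest to 0.662% of intergenic bases. Among 43 matched neural and mesoderm factors D, bin and so had 1 peak each, at ranks 2505, 3143 and 4096 (0.737% of peaks in 1.29% of bases).

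Among 34 matched signalling and cell death genes 7 were nearest to a peak (1.72% of peaks in 0.784% of bases). They were the Wnt receptor gene fz, the Ets repressor gene aop, the Notch ligand gene Ser, the Smad inhibitor gene Dad and the cell death genes hid, rpr and grim. The strongest, at fz, lay 1774 bp upstream, ranked 2516 and stood at 1.13, 0.836 and 1.15 times the replicate medians. The peak near grim was the most distant from any coding TSS, at 44353 bp, and was found in 1 replicate. Of 20 genes of the Domino and Tip60 complexes Act5C had 2 peaks, at 662 and 4680 bp, and Eaf6 had 1 at 3618 bp, with ranks of 2611, 5295 and 5892 (0.737% of peaks in 0.0673% of bases). Of 167 genes matched as ribosomal protein genes, RpS23 alone was nearest to a peak, at rank 3728, although these genes are nearest to 1.37% of intergenic bases.

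The peaks closest to and farthest from coding genes complete the range. In the class up to 500 bp the strongest lay 281 bp upstream of CG3009 (rank 284), 260 bp upstream of CG46429 (rank 298) and 259 bp upstream of Toll-7, a Toll family receptor gene (rank 357). Each was found in all 3 replicates. Beyond 20000 bp the strongest lay 22703 bp from CG13898 (rank 1747), 32882 bp from corto (rank 2186) and 31878 bp from CG43245 (rank 2901), also found in all 3. The peak of corto lay 92 bp from lncRNA:CR45588. The peaks farthest from any annotated TSS were 33732 bp from vvl (rank 5724), 31878 bp from CG43245 and 24785 bp from a non-coding TSS in the gap of grim (rank 5878). Of these the peak of CG43245 was found in all 3 replicates and the others in 1.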

How the data were processed

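The deposited files used are region lists in narrowPeak layout in the dm6 build, per the labels and file names: 30000 regions for each of 3 replicates and the IDR list of 5986 peaks for the series. The signal value, the −log10 q-value and the summit offset of each region are as deposited by the authors. Names of aligner and peak caller were not given in the sources used here. In replicates the −log10 q-value served only as another ranking. No list gives reads, so depth is unknown. Lists in dm3 and the pooled background list were not used here. Columns of per-sample values left unused numbered 0.

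Positions are 1-based. Genes and start sites are from Ensembl 115 on the Release 6 assembly. Non-coding classes follow biotype and name. Mature microRNA entries, pseudogenes and transposable elements were not counted as non-coding genes. Intergenic sequence at large was sampled on a grid of 1 window per 200 bp over X, 2L, 2R, 3L, 3R and 4. No window was left out because reads are hard to place there. Top regions were the strongest 5986 of each replicate. Overlap meant at least 1 bp. Motifs were sought as exact letters on both strands within 100 bp of the summit. Replicates give a mean and SD and a two-sided exact sign-flip permutation test, adjusted by Benjamini-Hochberg over 28 motif contrasts. With 1 group and 3 replicates the smallest p of this sign-flip test is 0.25. It is reached whenever the 3 replicates agree in direction, however far they spread, and the p-values speak for these replicates only.

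The text names the 10 strongest members, the 3 strongest near each non-coding class, in each distance class and in each gene list, the 3 farthest from any TSS, runs of 3 or more, and listed non-coding genes with a peak within 1000 bp. Of the runs, 1 is not reported here. Members, lists and motifs were chosen with earlier results of these data known. On simulated data, 3000 of 3000 positions and 700 of 700 planted motif sites were recovered, and 5986 of 5986 overlaps matched bedtools 2.31.1. Scripts ran in Python 3.11.15 with scipy 1.17.1, statsmodels 0.14.6, pandas 2.3.3, numpy 2.4.6 and, for plots, matplotlib 3.10.9. Other settings were promoter windows of 100, 500 and 1000 bp, the middle of the region, stronger peaks, joined peaks, RefSeq models, whole regions outside genes, other numbers of top regions, ranking by q-value, other windows and overlaps, and each replicate left out.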

Additional observations from a re-analysis of the deposited data

How the results depend on the processing

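Of 298 values recomputed under other settings, 260 kept their direction or stayed within a set limit. For most values without a direction the limit was their spread. For the number of intergenic peaks it was a set ratio to 407, wider than the spread between replicates. With promoter windows of 100 and 1000 bp there were 779 and 247 intergenic peaks, and 152 above the median signal, against 407. Within the limit were 292 with a 500 bp window and 276 with whole regions outside genes and promoters. The share near a non-coding TSS was 6.93% with the 100 bp promoter window and 13.8% above the median signal, and 4.91%, 17.2% and 22.6% with non-coding windows of 100, 500 and 1000 bp, against 10.8%. The share found in all replicates was 64.2% and 46.6% with promoter windows of 100 and 1000 bp, 90.1% above the median signal, and 22.1% and 83.0% with the strongest 3000 and 10000 regions, against 51.8%. The median distance to a coding TSS was 265, 3291.5 and 4103 bp with windows of 100, 500 and 1000 bp, 1397 bp above the median signal, 2000 bp with overlapping peaks joined and 3336 bp with whole regions outside genes and promoters, against 1774 bp. These windows set the distance by construction.

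Leaving out each replicate in turn limited the list to peaks found in both others. It gave 230 to 285 intergenic peaks, lowest without replicate 3 and next lowest without replicate 2, and a median distance of 1307 to 1521 bp. The share of all 407 found in both remaining replicates was 56.5% to 70.0%. The mean intergenic share of the strongest 3000 and 10000 regions per replicate was 5.02% and 9.60%, against 7.03%, and the mean median distance was 1916 bp at 10000, against 1703 bp.

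The signal ratio to gene-body peaks was 0.9995 with a 500 bp window against 1.01, and its replicate mean was 1.01 with the strongest 3000 and with the strongest 10000 regions against 0.986. The ratio of peaks near a non-coding TSS to the others was 0.955 above the median signal. The DRE share minus that of gene-body peaks was 0.57 percentage points, against -0.0421 with a 1000 bp window, -1.34 above the median signal, -0.300 with whole regions outside genes, -0.0026 within 50 bp of the summit and, as a replicate mean, -0.441 with the strongest 3000 regions. The causes were not tested. In the IDR list the ratio to promoter peaks, GC content and the differences for motif 1, GAGA, CTCF and Su(Hw) kept their direction in each setting tried. Single replicates did not always. With a 1000 bp window the GAGA share minus that of promoter peaks was 0.802 percentage points against 3.17, with a lowest replicate of -0.305, and the GC difference from gene-body peaks was -0.773 with a highest replicate of 0.374. Above the median signal the ratio to promoter peaks was 0.979 with a highest replicate of 1.003.

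No paired analysis was possible because the series holds 1 group, so no groups share replicate numbers. The sign-flip tests compare classes of regions within each replicate. The files give no depth, so the limit that depth sets on detection is unknown.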

Other observations

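Some intergenic peaks lay in gaps beside Polycomb group genes, whose products keep developmental genes silent. The list of 23 such genes was written after the values of the peaks were seen, so the counts are a description and carry no test. A gene on either side of the gap counted, whereas the other lists of coding genes used the nearest coding TSS. Of the 407 intergenic peaks 16 (3.93%) lay in a gap directly beside 1 of 6 of these genes, in 0.428% of intergenic bases. In the replicates it was 3.77%, 4.63% and 3.33% of intergenic top regions. They were 7 of the 51 intergenic peaks among the strongest 1000 of the IDR list, and 11 of the 16 were found in all 3 replicates. Beside Psc and Su(z)2 these included peaks at ranks 500 and 634 between CG13321 and Psc. Between the related genes ph-d and ph-p, which encode the Polyhomeotic subunits of the same complex, a peak at X from 2123904 to 2124243 ranked 342 and stood 833 bp from ph-d, with a further overlapping peak at rank 2599. A peak at rank 497 lay 7663 bp from RYBP, and one at rank 560 lay between corto and CG43131. Several of these gaps are long and hold more than 1 peak, so the 16 peaks are fewer than 16 separate loci. The 2 peaks between ph-d and ph-p had the same strongest overlapping region in each replicate. For some of the 16 the nearest coding TSS was that of a gene outside the list, such as CG13321.

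The pair-rule gene hairy, listed under an older symbol and so not matched by name, is annotated as hry. It was nearest to 2 intergenic peaks of a run of 3, at 16462 and 20618 bp from its TSS, with signals of 160.2 and 211.3. The E-box CACGTG was found at 5 of the 44 intergenic peaks near a non-coding TSS (11.4%, interval 3.79% to 24.6%) and at 6 of the 363 others (1.65%). Over all intergenic peaks it was 2.70%, with 4.64% at promoter summits, 2.48% at gene-body summits and 2.21% of intergenic windows. This split of the peaks was not planned, and the motif was picked from 14, so the counts are a description only.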
